A study of Homo sapiens with 4 samples.

Results

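The nuclear-encoded subunits of the mitochondrial respiratory chain were examined in Jurkat cells treated with the bromodomain inhibitor JQ1. The members were chosen by gene name (the NDUF, SDH, UQCR, CYC1, COX4 to COX8 and ATP5 names), and names that end in P and digits were left out as pseudogenes. This gave 94 of the 50868 genes in the files, after 139 pseudogene names had been dropped from 233 that matched. Of the 94, 86 are subunits and 8 are not. The latter are the readthrough transcripts ATP5J2-PTCD1 and NDUFC2-KCTD14, the RNAs NDUFA6-AS1, NDUFB2-AS1 and NDUFV2-AS1, the pseudogene ATP5J2LP, and ATP5S and ATP5SL, which are now known as DMAC2L and DMAC2. A mean over the libraries of at least 1 FPKM (fragments per kilobase of gene model per 1000000) was reached by 82 members, of which 78 are subunits. These 78 are 37 genes of complex I, 4 of complex II, 10 of complex III, 12 of complex IV and 15 of complex V.

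Jurkat is an established human T-cell leukemia line, labelled here as wild type. Each of the 4 conditions had 1 RNA-seq library of cells treated for 24 h: DMSO, which is the solvent control, 0.5 μM JQ1, DMSO with 150 ng/ml PHA, and 0.5 μM JQ1 with 150 ng/ml PHA. JQ1 displaces BET proteins from acetylated chromatin, and PHA is a plant lectin that activates T cells through their surface receptors. The comparison asked how BET inhibition alters expression in resting and in stimulated T cells.

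The respiratory chain sits in the inner mitochondrial membrane. Complexes I and II pass electrons from NADH and succinate to ubiquinone, complex III passes them on to cytochrome c, and complex IV gives them to oxygen. Complexes I, III and IV pump protons across the membrane, and complex V, the ATP synthase, makes ATP from their return. Most subunits are encoded in the nucleus and are imported, while a small core of complexes I, III, IV and V is encoded by the mitochondrial genome. Promoters of the nuclear genes are known for sites of NRF1, of the ETS factor GABP and of YY1. T cells draw on the chain when they are activated and divide.

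The libraries held 18620954 to 19685401 counts each. The floor used here, 3 counts, corresponds to between 0.152 and 0.161 counts per 1000000. All 10 T-cell markers had counts in every library, with a summed FPKM of 880, 685, 1182 and 797 in the order DMSO, JQ1, DMSO + PHA and JQ1 + PHA. Of 4 B-cell markers, CD79A had counts in every library, and CD79B and MS4A1 were at 0 in both JQ1 libraries. The list summed to 7.56, 1.06, 6.39 and 1.01 FPKM in the same order, and its part in the results was not tested. The myeloid, erythroid and stromal lists summed to at most 0.707 FPKM, with CSF1R, HBB and EPCAM at 0 in every library. Since no condition had a replicate, no test was made and no p-value is given. Intervals are 95% intervals for counting error only, and whether a difference exceeds the spread between cultures cannot be told from these data. In bulk RNA, less RNA per cell and fewer cells that express a gene cannot be told apart.

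Upstream sequence is shown first for members on which the results below turn. RefSeq promoters (build GRCh38.p14, 250 bases before to 50 after the start site) matched 74 of the 94 members and 66 of the 82 that passed. Each line below is the 100 bases before the start site, 5′ to 3′ in the direction of transcription. A match to the searched motifs is in capitals if it lies wholly within these bases. An ETS motif of ATP5H starts at -101 from the start site, so that its other bases open the ATP5H line unmarked. Also outside the lines are a YY1 motif of ATP5O at 39, NRF1 motifs of COX6A1 at -218 and -174, and that of NDUFB4 given further below. ATP5G1, NDUFB10, NDUFB4, NDUFC1 and UQCR10 are shown because their FPKM was at least 1.5-fold lower with JQ1 both without and with PHA, and ATP5H, ATP5O, COX6A1 and SDHA because their counts were higher in both beyond counting error. CYC1 and ATP5S were not matched.
ATP5G1, chr17:48892687-48892786, plus strand: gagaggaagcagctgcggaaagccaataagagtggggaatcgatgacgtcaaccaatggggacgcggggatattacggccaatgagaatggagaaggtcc
NDUFB10, chr16:1959438-1959537, plus strand: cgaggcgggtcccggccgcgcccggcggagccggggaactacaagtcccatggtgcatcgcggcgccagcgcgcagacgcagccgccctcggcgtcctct
NDUFB4, chr3:120596236-120596335, plus strand: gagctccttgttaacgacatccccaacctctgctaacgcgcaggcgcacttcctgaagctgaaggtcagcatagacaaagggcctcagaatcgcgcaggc
NDUFC1, chr4:139302552-139302651, minus strand: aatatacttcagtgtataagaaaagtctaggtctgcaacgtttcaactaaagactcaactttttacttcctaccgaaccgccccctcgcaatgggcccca
UQCR10, chr22:29767269-29767368, plus strand: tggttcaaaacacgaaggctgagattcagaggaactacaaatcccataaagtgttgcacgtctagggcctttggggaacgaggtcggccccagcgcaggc
ATP5H, chr17:75046970-75047069, minus strand: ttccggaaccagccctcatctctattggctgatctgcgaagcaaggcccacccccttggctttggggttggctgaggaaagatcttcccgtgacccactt
ATP5O, chr21:33915805-33915904, minus strand: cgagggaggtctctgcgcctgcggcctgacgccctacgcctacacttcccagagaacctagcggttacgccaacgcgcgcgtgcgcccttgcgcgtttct
COX6A1, chr12:120438013-120438112, plus strand: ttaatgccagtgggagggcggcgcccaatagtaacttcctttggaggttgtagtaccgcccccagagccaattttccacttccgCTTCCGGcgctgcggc
SDHA, chr5:218220-218319, plus strand: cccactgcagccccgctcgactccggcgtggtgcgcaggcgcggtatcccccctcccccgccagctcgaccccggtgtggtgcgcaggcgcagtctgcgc

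The motifs were CCGGAAG for the ETS family, GCATGCGC for NRF1 and AAGATGGC for YY1, on either strand. Copies of the NRF1 motif on opposite strands can overlap each other by 6 bases. At least 1 motif lay in 33 of the 66 promoters of members that passed, in 5244 of all 35116 promoters of the table (14.9%) and in 2404 of 7630 promoters of genes that passed the same FPKM filter (31.5%). Among the members, the ETS motif was found in 28.8%, the NRF1 motif in 19.7% and the YY1 motif in 16.7%, against 22.1%, 6.46% and 6.58% of the promoters of genes that passed. Members were matched by newer symbol, deposited symbol or synonym, and the 7630 by the deposited symbol only. The sets were thus drawn by unlike rules, and the 7630 include the members found by that symbol. Of 26 members whose counts were lower with JQ1 beyond counting error in both comparisons, 14 had a motif (53.8%), and of the 40 others 19 did (47.5%). The motifs were therefore spread over members that were lower with JQ1 and members that were not.

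Sites of 30 bases are given for SDHB and for NDUFB4 and NDUFS6, complex I genes that were lower with JQ1. The promoter of SDHB held all of the motifs, as did that of ATP5J, which is not shown. Positions count bases from the start site to the first base of the motif.
SDHB, ETS motif at -128, chr1:17054142-17054171, minus strand: cacccgggaaaCCGGAAGccgcctcccact
SDHB, NRF1 motif at -200, chr1:17054214-17054243, minus strand: aagccaaatggGCATGCGCcgctactgcgc
SDHB, YY1 motif at 11, chr1:17054004-17054033, minus strand: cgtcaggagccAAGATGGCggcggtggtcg
NDUFB4, NRF1 motif at -157, chr3:120596168-120596197, plus strand: gagcacttcgcGCATGCGCatatcaccgag
NDUFS6, NRF1 motif at -46, chr5:1801350-1801379, plus strand: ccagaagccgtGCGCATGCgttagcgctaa

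The first question was how much transcript each complex had and how the levels were ordered. Levels between genes are given per length, as counts per kilobase of the canonical transcript (GENCODE 44) per 1000000 counts. The length behind the deposited FPKM exceeded that transcript by a median of 3.86-fold in the members, from 1.03-fold for COX8A to 24.9-fold for NDUFS7, so that FPKM ranks genes differently. Across the 82 members the rank correlation of both scales was 0.72. In the DMSO library the median level was 80.0 for complex IV, 76.3 for complex V, 65.2 for complex II, 39.9 for complex I and 38.1 for complex III. The 13 subunits of the mitochondrial genome had a median of 6220 on the same scale. The members that passed took 0.577%, 0.530%, 0.568% and 0.521% of the counts of the DMSO, JQ1, DMSO + PHA and JQ1 + PHA libraries. Mitochondrial-genome subunits took between 5.61% and 6.53%.

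On the canonical scale, ATP5B, the catalytic β subunit of the F1 head, had the highest mean level of the members (233). NDUFS5, an accessory subunit of the membrane arm of complex I, followed with 218, COX6A1 with 206 and UQCRH, the hinge protein of complex III, with 186. By FPKM, NDUFS5 was first with 173, 155, 199 and 159 in the libraries in the order DMSO, JQ1, DMSO + PHA and JQ1 + PHA, an order used for all values that follow. COX8A had the highest mean FPKM of complex IV (54.9, 71.1, 64.6 and 68.5) but was only at 66.5 on the canonical scale. Among genes that passed the filter, the lowest mean FPKM of complex I was that of NDUFS7 (1.20, 1.09, 0.983 and 1.02), the subunit whose iron-sulphur cluster passes electrons to quinone, and the lowest of complex V that of ATP5D (0.966, 0.744, 1.62 and 1.10), the δ subunit. NDUFS7 was at 26.7 on the canonical scale. UQCR11, a small subunit of complex III, had the lowest mean FPKM there among genes that passed (8.79, 7.44, 8.52 and 6.61). COX7A2L, which joins complexes III and IV into supercomplexes, had the lowest of the complex IV genes that passed (1.99, 2.39, 1.97 and 2.24).

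JQ1 was compared with DMSO by the log2 ratio of FPKM after 0.1 was added. Without PHA, the median ratio of the 82 members was -0.16, against -0.01 over the 11503 genes that passed the filter. None of the 82 members was at least 1.5-fold higher with JQ1, while 14.8% of all genes were, and 14 (17.1%) were at least 1.5-fold lower, against 19.3% of all genes. At 2-fold, 4 members were lower (4.88%, background 8.65%) and none was higher (background 5.22%). Under edgeR TMM or DESeq2 scaling of the libraries, 1 member was at least 1.5-fold higher. The ratios of the members were packed more closely than those of all genes, with an interquartile range of 0.50 against 0.82. The members thus had few large ratios in either direction, and their share of genes past 1.5-fold lower was close to the background.

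In the presence of PHA the median ratio was -0.13, against -0.02 over all genes. Here 9 members were at least 1.5-fold lower (11.0%, background 17.8%) and 1 was higher (1.22%, background 11.7%). At 2-fold, 3 were lower (3.66%, background 8.00%) and 1 was higher (1.22%, background 3.69%). The single member that was higher was ATP5J2-PTCD1, which had 1 count in the DMSO + PHA library. Over the 82 members the ratios without and with PHA had a Spearman's rho of 0.62 and a Pearson's r of 0.12. Over the 78 subunits, which leave out ATP5J2-PTCD1 and 3 other members, rho was 0.72 and r was 0.76, and over all 11503 genes rho was 0.79. These are descriptions across genes, which are not independent and share the depth of each library.

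In both JQ1 comparisons, 6 members were at least 1.5-fold lower (7.32%, background 13.2%) and none was higher (background 7.82%). By the interval of the ratio of count shares, 31 of the 82 members were lower in both comparisons (37.8%, background 30.8%) and 5 were higher in both (6.10%, background 28.0%). Among all genes, the shares in each direction were of like size, while among the members the lower ones outnumbered the higher ones. A ratio below 0 in both was seen for 45 members, above 0 in both for 18, and opposite signs for 19. These are 54.9% and 22.0% of the members for the like signs, against 42.5% and 40.3% of all genes.

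The complexes differed in where their ratios lay. Complex III had the lowest median, -0.37 without PHA and -0.38 with PHA, and 7 of its 10 subunits had intervals below 0 in both. Complex I had medians of -0.23 and -0.15, and 16 of its 37 subunits were lower in both. Complex V had medians of -0.19 and -0.15, with 4 of 15 lower in both and 2 higher in both. Complex II had medians of -0.01 and -0.06, with 2 of 4 lower and 1 higher in both. Complex IV had medians above 0 (0.09 and 0.06), with 2 of 12 lower and 1 higher in both. By the same intervals, 30.8% of all genes were lower in both and 28.0% were higher in both. The lower share was above that of all genes in complexes I (43.2%), II (2 of 4 genes) and III (70.0%). It was below that of all genes in complexes IV (16.7%) and V (26.7%). The higher share was below that of all genes in every complex, with 8.33% in complex IV and 13.3% in complex V. The sign of the medians of complexes I, III, IV and V was the same under all 4 other scalings of the libraries, while that of complex II without PHA lay between -0.01 and 0.03.

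**Figure D1:**
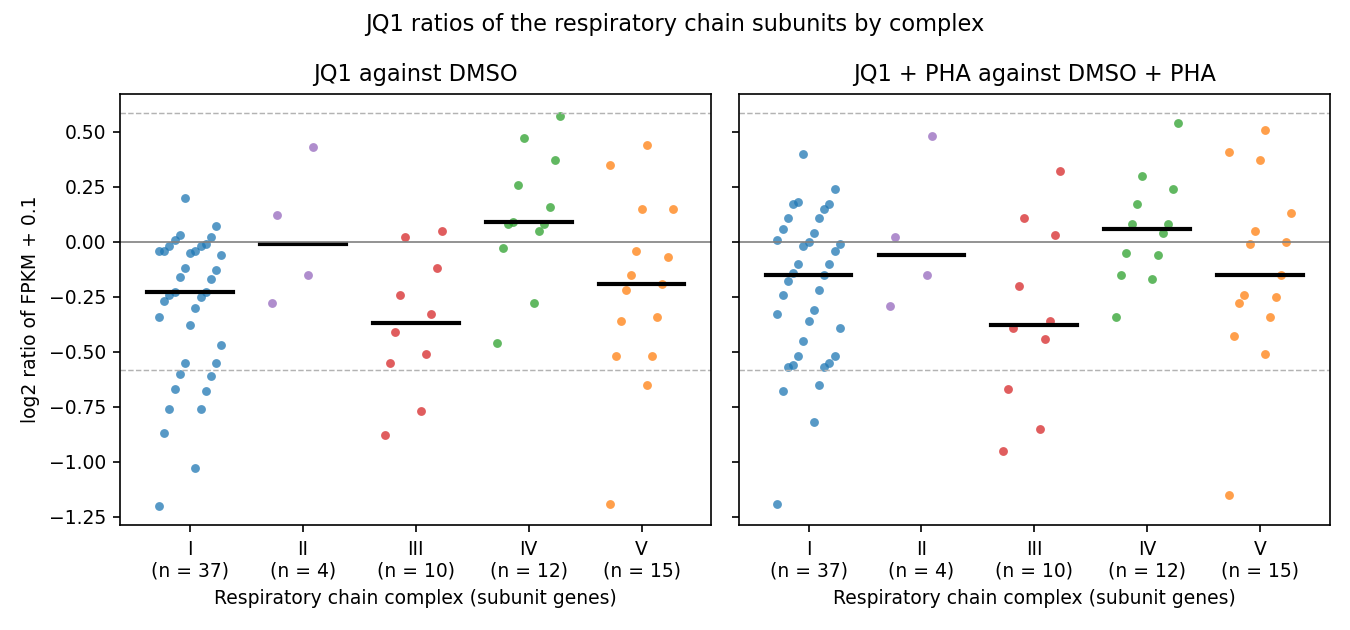
Each point is 1 of 78 subunit genes, placed by complex and by the log2 ratio of FPKM + 0.1 of JQ1 to DMSO (left) and of JQ1 + PHA to DMSO + PHA (right). Black bars are medians and dashed lines mark 1.5-fold. The medians of complexes I, III and V lie below 0 and that of complex IV above 0 in both panels.

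NDUFC1 and ATP5G1 were the subunits at least 2-fold lower in both JQ1 comparisons. NDUFC1 (ENSG00000109390, chromosome 4, 139266880 to 139302551), a small accessory subunit of the membrane arm of complex I, had an FPKM of 4.63, 1.97, 4.43 and 1.89. Its log2 ratio was -1.20 without PHA (95% interval of the count ratio -1.56 to -0.92) and -1.19 with PHA (-1.57 to -0.90). Both JQ1 libraries lay below both DMSO libraries, by 2.36-fold and 2.35-fold in counts. PHA left it at ratios of -0.06 in either pair, within counting error.

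ATP5G1 (ENSG00000159199, chromosome 17, 48892765 to 48895871) is one of the genes for the c subunit, which forms the proton-driven ring of ATP synthase. Its FPKM was 8.90, 3.85, 7.14 and 3.16, with ratios of -1.19 (-1.39 to -1.02) and -1.15 (-1.38 to -0.97). The genes ATP5G1, ATP5G2 and ATP5G3 encode the same mature protein behind different import sequences. ATP5G2 had an FPKM of 6.66, 4.62, 4.32 and 3.89, and ATP5G3 of 13.9, 13.3, 15.8 and 13.3. The JQ1 ratios of ATP5G2 were -0.52 (-0.68 to -0.38) and -0.15 (-0.32 to 0.02), and those of ATP5G3 were -0.07 (-0.15 to 0.02) and -0.24 (-0.33 to -0.16). All of the c-subunit genes were therefore lower with JQ1 or within counting error, and ATP5G1 was the lowest of them.

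As a share of the summed counts of the c-subunit genes, ATP5G1 took 20.2% with DMSO (Wilson bounds 18.9% and 21.5%) and 11.1% with JQ1 (10.0% and 12.2%). With PHA it took 649 of 3811 counts with DMSO (15.9% and 18.3%) and 9.60% with JQ1 (8.57% and 10.7%). The share of ATP5G3 was 56.2%, 68.1%, 66.8% and 71.9% in the 4 libraries. Summed over the genes, the c-subunit counts were 3830, 3154, 3811 and 2832, with log2 ratios for JQ1 of -0.34 (-0.41 to -0.28) and -0.35 (-0.42 to -0.28). Reads of the coding part can fit more than 1 of these genes, and the way such reads were counted is not given in the sources used here.

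**Figure D2:**
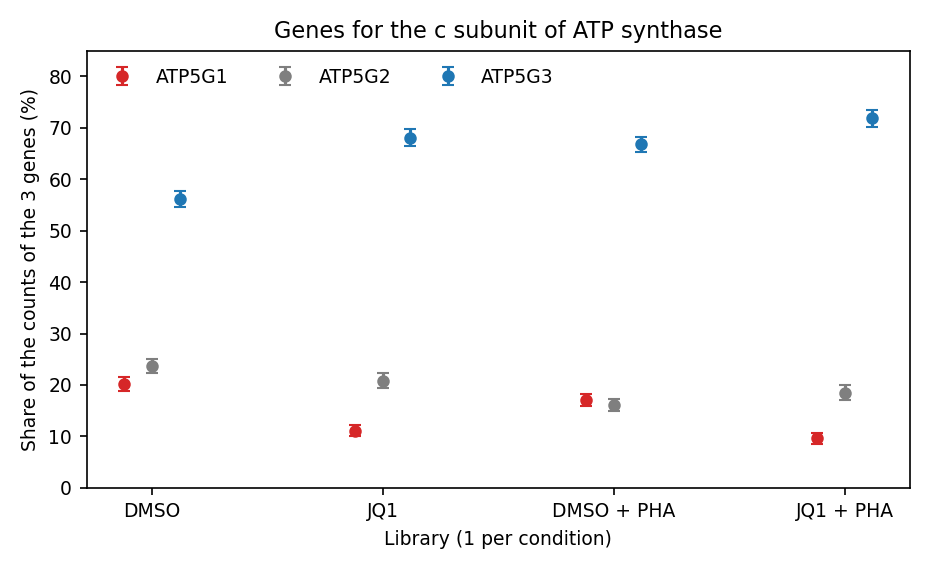
The share of ATP5G1, ATP5G2 and ATP5G3 in the summed counts of the 3 genes is plotted for each library in percent, with 95% Wilson intervals for counting error. ATP5G1 is lower in both JQ1 libraries than in either DMSO library, and ATP5G3 is the largest share in each library, between 56.2% and 71.9%.

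The other members at least 1.5-fold lower in both comparisons were NDUFB4, NDUFB10, CYC1 and UQCR10. NDUFB4 (ENSG00000065518), an accessory subunit of the membrane arm of complex I, had an FPKM of 10.2, 5.58, 11.7 and 6.58, with ratios of -0.87 (-1.05 to -0.71) and -0.82 (-0.99 to -0.67). NDUFB10 (ENSG00000140990), of the same arm, had 15.7, 9.19, 13.3 and 8.31, with ratios of -0.76 (-0.92 to -0.61) and -0.68 (-0.85 to -0.52). For each of these genes, both JQ1 libraries lay below both DMSO libraries. CYC1 (ENSG00000179091), the cytochrome c1 that hands electrons to cytochrome c, had an FPKM of 14.4, 8.44, 12.6 and 7.88, with ratios of -0.77 (-0.92 to -0.63) and -0.67 (-0.84 to -0.52). UQCR10 (ENSG00000184076), a small subunit of complex III, had 16.0, 8.66, 16.4 and 8.43, with ratios of -0.88 (-1.10 to -0.67) and -0.95 (-1.18 to -0.74). Both JQ1 libraries were again the lowest for these complex III genes.

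**Figure D3:**
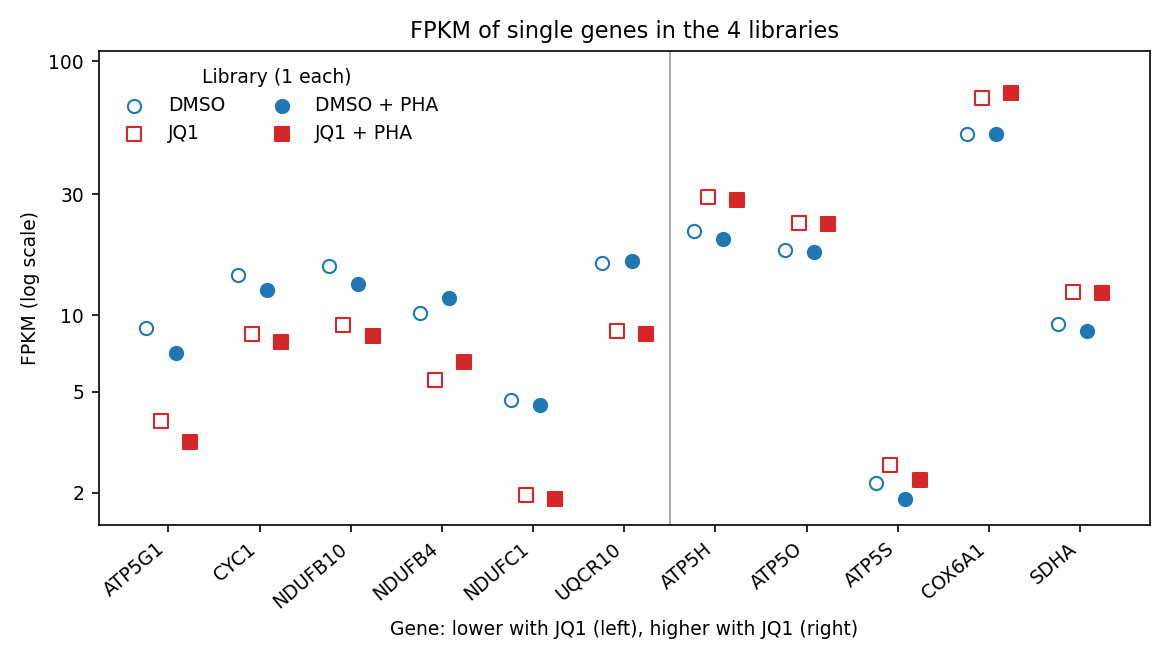
FPKM on a log axis of the 6 members at least 1.5-fold lower with JQ1 in both comparisons (left) and of the 5 members with counts above those of DMSO beyond counting error in both (right), 1 point per library. Open symbols are libraries without PHA and filled symbols those with PHA, and circles are DMSO and squares JQ1. For ATP5G1, CYC1, NDUFB10, NDUFB4, NDUFC1 and UQCR10 both squares lie below both circles, and for ATP5H, ATP5O, ATP5S, COX6A1 and SDHA both lie above.

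Complex I has a core that carries the flavin and the iron-sulphur clusters and a larger number of accessory subunits around it. The 7 nuclear core subunits had median JQ1 ratios of -0.12 without PHA and -0.15 with PHA, and the 30 accessory subunits -0.23 and -0.16. Of the 9 complex I subunits at least 1.5-fold lower without PHA, all were accessory. NDUFS6, a zinc-binding accessory subunit of the peripheral arm, had an FPKM of 22.1, 10.8, 15.6 and 10.6 and ratios of -1.03 (-1.21 to -0.86) and -0.55 (-0.75 to -0.36). It was highest in the DMSO library, and both JQ1 libraries were lower than both DMSO libraries. NDUFS1, the largest core subunit, had 11.5, 11.3, 11.6 and 11.6, with ratios of -0.02 (-0.08 to 0.05) and -0.01 (-0.07 to 0.06). It had 3329 to 3532 counts in a library.

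Among complex I subunits above 0 in both comparisons, NDUFB5 and NDUFA3 ranked first by the smaller of their ratios. NDUFB5, of the membrane arm, had an FPKM of 2.87, 3.31, 2.86 and 3.10 and ratios of 0.20 (0.06 to 0.35) and 0.11 (-0.03 to 0.27). NDUFA3, also of the membrane arm, had 2.06, 2.16, 1.99 and 2.26 and ratios of 0.07 (-0.23 to 0.37) and 0.17 (-0.12 to 0.49). In the comparison with PHA, the ratio of NDUFV3 was higher, at 0.40 (0.25 to 0.57), as was that of NDUFA6, at 0.24 (0.09 to 0.40), and without PHA their intervals held 0. None of the 37 subunits of complex I had an interval above 0 in both comparisons.

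Of the complex II genes, SDHA, the flavoprotein that oxidises succinate, had an FPKM of 9.21, 12.4, 8.70 and 12.2. Its ratios were 0.43 (0.36 to 0.51) and 0.48 (0.41 to 0.56), and both JQ1 libraries lay above both DMSO libraries. SDHB, the iron-sulphur subunit, had 25.1, 22.7, 24.9 and 22.5, with ratios of -0.15 (-0.25 to -0.04) in each comparison. SDHD, a membrane anchor, had 10.2, 8.35, 10.5 and 8.58, with ratios of -0.28 (-0.41 to -0.16) and -0.29 (-0.42 to -0.17). SDHC, the other anchor, had 6.38, 6.93, 6.16 and 6.26, with ratios of 0.12 (0.04 to 0.20) and 0.02 (-0.06 to 0.11). The flavoprotein gene thus lay on the other side of 0 from SDHB and SDHD in both pairs of libraries.

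In complex III, the core protein UQCRC1 had an FPKM of 21.9, 22.6, 20.9 and 21.3 and ratios of 0.05 (-0.03 to 0.13) and 0.03 (-0.05 to 0.11). UQCRB, a small subunit, had 10.5, 10.7, 9.88 and 10.7 and ratios of 0.02 (-0.05 to 0.10) and 0.11 (0.04 to 0.19). UQCRFS1, the Rieske iron-sulphur protein, had 28.8, 19.6, 26.5 and 19.5 and ratios of -0.55 and -0.44. Beside CYC1 and UQCRFS1, the genes with intervals below 0 in both comparisons were UQCR10, UQCR11, UQCRC2, UQCRH and UQCRHL. UQCRH and its intronless copy UQCRHL share most of their sequence, so their counts are uncertain apart. UQCRH had an FPKM of 57.9, 40.5, 51.1 and 39.0 and UQCRHL of 14.6, 10.9, 11.3 and 9.83, and their summed counts gave ratios of -0.49 (-0.57 to -0.41) and -0.35 (-0.44 to -0.27). UQCRFS1 summed with its pseudogene UQCRFS1P1 gave -0.54 and -0.43.

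COX6A1 had the highest ratios in complex IV among genes above 0 in both comparisons. COX6A1 (ENSG00000111775, chromosome 12, 120438090 to 120440742), the ubiquitous form of subunit 6A, had an FPKM of 51.9, 71.7, 51.5 and 75.2. Its ratios were 0.47 (0.38 to 0.56) and 0.54 (0.46 to 0.63), and with the counts of the pseudogene COX6A1P2 added they were 0.47 and 0.54. COX7A2L had ratios of 0.26 (0.04 to 0.49) and 0.17 (-0.05 to 0.41). The lowest were COX5A, with an FPKM of 19.6, 16.1, 18.4 and 14.5 and ratios of -0.28 (-0.42 to -0.15) and -0.34 (-0.49 to -0.20), and COX6B1, with 33.4, 24.2, 29.2 and 26.4 and ratios of -0.46 (-0.60 to -0.33) and -0.15 (-0.28 to -0.01). COX8A had ratios of 0.37 (0.21 to 0.54) and 0.08 (-0.07 to 0.24), the second within counting error.

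Where complex IV has tissue forms of a subunit, the ubiquitous gene held nearly all counts. COX4I1 had an FPKM of 5.33, 5.65, 5.90 and 6.07, and the lung form COX4I2 had 0, 0, 3 and 0 counts. The muscle forms COX6A2 and COX7A1 and the testis form COX7B2 had no count in any library, beside 1730 to 2499 counts of COX6A1, 1201 to 1446 of COX7A2 and 735 to 1161 of COX7B. A count of 0 allows up to 0.161 counts per 1000000 at the floor of 3. The testis forms COX6B2 and COX8C had at most 3 and 1 counts. NDUFA4, named for complex I and now placed in complex IV, had an FPKM of 10.4, 15.5, 14.0 and 13.4, and its paralogue NDUFA4L2 had 58, 29, 47 and 21 counts and did not pass the filter. NDUFA4L2 was lower with JQ1 in both pairs, with count ratios of -1.06 (-1.76 to -0.40) and -1.08 (-1.90 to -0.31). ATP5L, subunit g of complex V, had 2264 to 2635 counts and its copy ATP5L2 at most 2.

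In complex V, the stator stalk split. ATP5H, subunit d, had an FPKM of 21.5, 29.3, 20.0 and 28.4 and ratios of 0.44 (0.35 to 0.54) and 0.51 (0.41 to 0.61). ATP5O, the oligomycin sensitivity conferral protein, had 18.1, 23.0, 17.7 and 22.9 and ratios of 0.35 (0.26 to 0.43) and 0.37 (0.29 to 0.46). For both genes the JQ1 libraries lay above the DMSO libraries. ATP5J, coupling factor 6, had 24.5, 21.0, 20.3 and 16.7 and ratios of -0.22 (-0.33 to -0.10) and -0.28 (-0.41 to -0.15). ATP5F1, subunit b, had ratios of -0.19 and -0.34. ATP5I, subunit e of the membrane part, had 8.70, 5.51, 7.02 and 5.18 and ratios of -0.65 (-0.97 to -0.35) and -0.43 (-0.78 to -0.11). The F1 head and shaft, 5 genes, had medians of -0.15 and -0.01.

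ATP5S and ATP5SL carry ATP synthase names but are no subunits of the mature enzyme. ATP5S had an FPKM of 2.18, 2.58, 1.89 and 2.24, with JQ1 ratios of 0.24 (0.10 to 0.40) and 0.23 (0.09 to 0.40). ATP5SL, which takes part in complex I assembly, had 2.23, 1.82, 2.41 and 2.19, with ratios of -0.28 (-0.48 to -0.11) and -0.13 (-0.31 to 0.04).

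Next, the JQ1 ratios were compared between cells without and with PHA. ATP5J2-PTCD1 had the largest difference, with 275, 116, 1 and 186 counts, and its log2 count ratio for JQ1 was -1.31 (-1.64 to -0.99) in unstimulated cells and 7.62 (5.12 to 12.93) in PHA-stimulated cells. A readthrough transcript shares exons with ATP5J2, subunit f of complex V, so these counts are uncertain. ATP5J2 itself had an FPKM of 18.3, 12.7, 11.5 and 15.3, lower with JQ1 without PHA (-0.52, -0.63 to -0.41) and higher with PHA (0.41, 0.30 to 0.53). Summed, the pair had 1919, 1313, 1082 and 1550 counts and ratios of -0.61 (-0.71 to -0.51) and 0.60 (0.49 to 0.71). The DMSO library was the highest and the DMSO + PHA library the lowest, whether the pair was summed or ATP5J2 was taken alone.

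NDUFC2-KCTD14, a readthrough of NDUFC2, had 42, 54, 107 and 44 counts and FPKM of 1.39, 1.71, 3.38 and 1.47. Its ratio was 0.28 (-0.31 to 0.92) without PHA and -1.15 (-1.74 to -0.68) with PHA, and the DMSO + PHA library stood above the others. Summed with NDUFC2, which had an FPKM of 10.2 to 10.6, the ratios were -0.03 (-0.15 to 0.09) and -0.07 (-0.19 to 0.04). NDUFA4 had ratios of 0.57 (0.45 to 0.70) and -0.06 (-0.18 to 0.06), its DMSO library being the lowest. NDUFA13, an accessory subunit of complex I also known as GRIM-19, had an FPKM of 9.44, 5.55, 6.70 and 5.92, its DMSO library being the highest. Its ratios were -0.76 (-0.93 to -0.60) and -0.18 (-0.36 to -0.00, just below 0). For NDUFA4 and NDUFA13 the 4 libraries thus differed mainly by the DMSO library. The difference between the ratios with and without PHA was -0.64 (-0.81 to -0.46) for NDUFA4 and 0.59 (0.35 to 0.82) for NDUFA13, with counting error only.

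**Figure D4:**
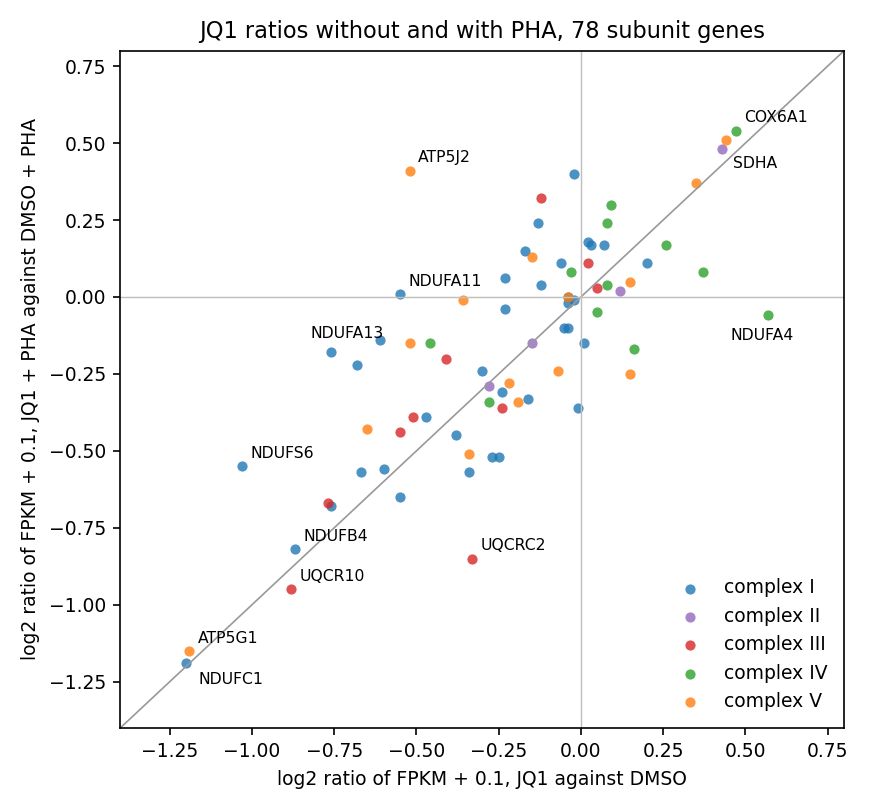
Each point is 1 of 78 subunit genes, with the log2 ratio of FPKM + 0.1 of JQ1 to DMSO on the x axis and of JQ1 + PHA to DMSO + PHA on the y axis, coloured by complex. The grey diagonal marks equal ratios. The ratios shared much of their rank order (Spearman's rho 0.72), which does not measure nearness to the diagonal. ATP5J2, NDUFS6, NDUFA13 and NDUFA11 lie above the diagonal and NDUFA4 and UQCRC2 below.

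The effect of PHA itself was compared in DMSO-treated and in JQ1-treated cells. In DMSO, the median ratio of the members was -0.09 (all genes -0.01), with 4 at least 1.5-fold higher (4.88%, background 5.59%) and 3 lower (3.66%, background 3.83%). At 2-fold, 1 was higher, NDUFC2-KCTD14 (background 2.10%), and 1 was lower, ATP5J2-PTCD1 (background 1.19%). In JQ1-treated cells the median was -0.04 (all genes at 0 to 2 decimals), with 1 at least 1.5-fold higher, ATP5J2-PTCD1 (background 2.58%), and none lower (background 3.05%). None passed 2-fold in JQ1-treated cells, where 1.04% of all genes were higher and 1.03% lower. The shares of members past either fold were near or below those of all genes. In DMSO, 73.2% of members had a PHA ratio below 0 (all genes 51.1%). Intervals lay below 0 for 45.1% (all genes 25.1%) and above 0 for 13.4% (all genes 24.7%). In JQ1-treated cells, 65.9% were below 0 (all genes 50.9%), with intervals below 0 for 24.4% (15.7%) and above 0 for 13.4% (15.6%). The DMSO library is the reference both for PHA in DMSO and for JQ1 without PHA.

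Ranked by the smaller of the PHA ratios with the same sign in both pairs, the highest subunits were NDUFA12, ATP5D and NDUFB4, and the lowest were NDUFB9, ATP5J and ATP5G1. NDUFA12, an accessory subunit of the peripheral arm of complex I, had an FPKM of 8.39, 7.08, 12.9 and 10.4 and PHA ratios of 0.61 (0.46 to 0.78) in DMSO and 0.55 (0.38 to 0.73) in JQ1. Both PHA libraries lay above both libraries without PHA. ATP5D had ratios of 0.69 (0.39 to 1.10) and 0.51 (0.16 to 0.98), from 87 to 189 counts. NDUFB4 had ratios of 0.19 (0.06 to 0.33) and 0.23 (0.05 to 0.43). NDUFB9, a subunit of the membrane arm, had an FPKM of 16.7, 10.5, 12.7 and 8.57 and ratios of -0.39 (-0.51 to -0.27) and -0.28 (-0.44 to -0.14). ATP5J had ratios of -0.27 and -0.33, and ATP5G1 of -0.31 and -0.28. UQCRC2, the other core protein of complex III, had an FPKM of 31.9, 25.3, 49.8 and 27.5, with a PHA ratio of 0.64 (0.59 to 0.70) in DMSO and 0.12 (0.06 to 0.19) in JQ1. Its DMSO + PHA library stood above the other libraries.

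The RNAs NDUFA6-AS1, NDUFB2-AS1 and NDUFV2-AS1 did not pass the filter. Whether the counting used strand is not given in the sources used here, so reads of an overlapping gene cannot be told apart from theirs. NDUFA6-AS1, beside NDUFA6, had 60, 157, 71 and 270 counts, with count ratios for JQ1 of 1.32 (0.89 to 1.78) and 2.01 (1.63 to 2.41). NDUFB2-AS1 had 19, 4, 21 and 7 counts and NDUFV2-AS1 6, 23, 5 and 8. ATP5J2LP had no count.

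Other lists of mitochondrial genes, written with earlier results of these data known, were described for comparison. Subunits of the mitochondrial genome had median JQ1 ratios of 0.11 without PHA and 0.21 with PHA. Beyond counting error, 7 and 9 of 13 were above 0 (36.9% and 34.6% of all genes) and 6 and 3 below 0 (38.7% and 38.2% of all genes). These genes have high counts, and 0 and 1 of their intervals held 0, against 2810 and 3122 of 11503 for all genes. The shares therefore depend on depth as well as on direction. MT-CYB of complex III had ratios of 0.33 and 0.39 and MT-CO2 of complex IV 0.33 and 0.38, while MT-ND6 had -0.55 and -0.32. MT-CYB, the complex III subunit of the mitochondrial genome, thus lay on the other side of 0 from the median of the nuclear complex III genes. The assembly factors of the complexes had medians of -0.34 and -0.24, with 15 and 14 of 49 at least 1.5-fold lower, against 19.3% and 17.8% of all genes. The mitochondrial ribosomal proteins had medians of -0.58 and -0.48, with 38 and 28 of 76 at least 1.5-fold lower against the same shares of all genes, and the cytosolic ribosomal proteins -0.44 and -0.28. The tricarboxylic acid cycle enzymes had medians of -0.13 and -0.03, and the electron carriers, cytochrome c and ubiquinone synthesis genes among them, 0.07 and -0.21. Of the 15 carriers that passed, 7 and 10 were below 0 and 8 and 5 above 0. Their summed counts gave -0.27 in each comparison. CYCS, the gene of cytochrome c, had a ratio of -0.57 in each.

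**Figure D5:**
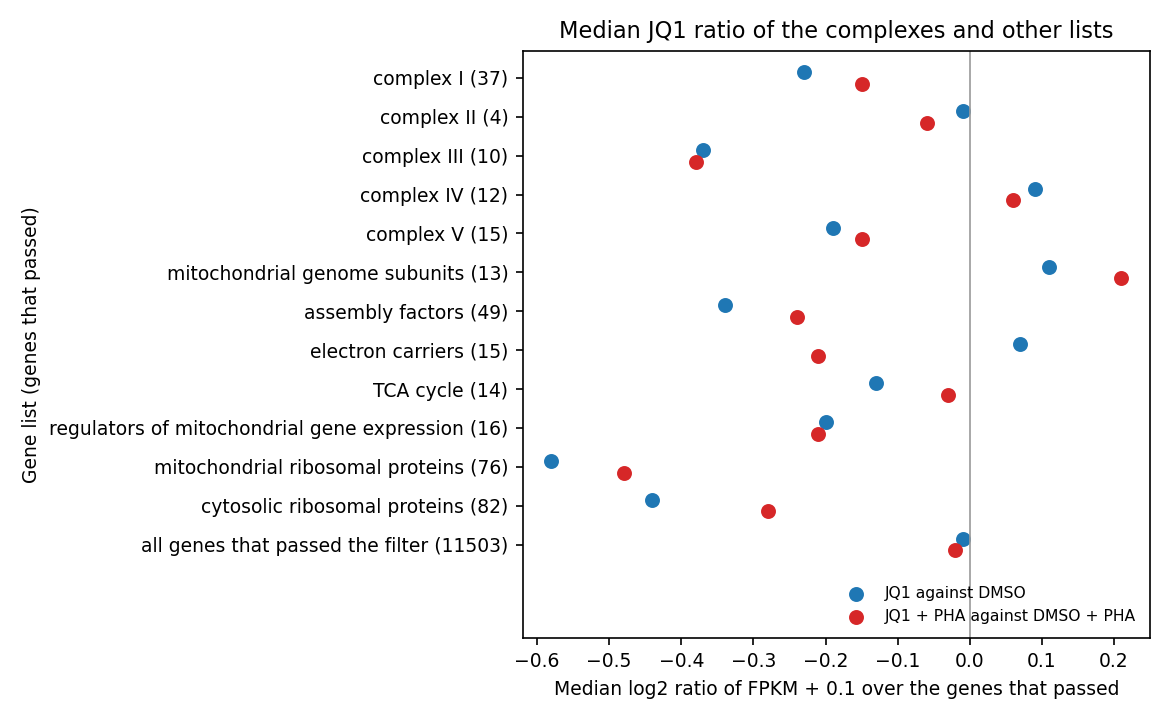
The median log2 ratio of FPKM + 0.1 over the genes that passed the filter is shown for each complex and each other list, for JQ1 against DMSO (blue) and JQ1 + PHA against DMSO + PHA (red). Numbers of genes are in parentheses. Mitochondrial ribosomal proteins had the lowest medians (-0.58 and -0.48), complex III the lowest of the complexes, and complex IV and the mitochondrial-genome subunits lay above 0 in both comparisons.

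Of the regulators of mitochondrial gene expression, 16 of 17 passed the filter. PPARGC1B, a coactivator of the PGC-1 family, had an FPKM of 3.99, 0.715, 3.59 and 0.683 and JQ1 ratios of -2.33 and -2.24. PPRC1, a relative of it, had 12.4, 4.30, 11.0 and 3.73 and ratios of -1.51 and -1.54. TFB2M, a factor that starts transcription of the mitochondrial genome, had 19.6, 6.02, 17.2 and 6.07 and ratios of -1.68 and -1.49. These regulators were lower with JQ1 by more than any subunit of the chain. NRF1 had an FPKM of 4.15, 6.59, 3.57 and 5.75 and ratios of 0.65 and 0.67, POLG, the polymerase of the mitochondrial genome, ratios of 0.37 and 0.62, and GABPB1 0.41 and 0.23. GABPB2 had ratios of -0.78 and -0.61, POLRMT -0.56 and -0.24, TFB1M -0.51 and -0.39, LRPPRC -0.41 and -0.37, TFAM -0.23 and -0.18, and GABPA -0.14 and -0.08. YY1 had ratios of -0.05 and -0.02, TEFM 0.03 and 0.13, MTERF1 -0.17 and 0.38, and ESRRA 0.13 and -0.53. PPARGC1A had at most 1 count in a library.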

How the data were processed

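The 4 libraries were of Jurkat cells, 1 per condition, from VAHTS kits sequenced on a HiSeq2500 instrument. The authors aligned the reads with Hisat2 (2.0.4) to GRCh38, and the submitters' processing notes also list TopHat2 2.0.9 and Cufflinks 2.1.1. The authors deposited raw counts per gene and FPKM. The counting program, its use of strand and the annotation are not given in the sources used here. Files were joined on the Ensembl identifier. Log2 ratios of FPKM + 0.1 were computed where the mean FPKM over the libraries was 1 or more, calls were set at 1.5-fold and 2-fold, and the ratio of a gene's count shares was given a 95% interval (Clopper-Pearson, exact), for counting error only. Differences between ratios have normal-approximation intervals. Canonical transcript lengths came from GENCODE 44, and levels per canonical length and sums over near-identical copies were added after seeing the data. The steps were tested on simulated counts with counting error alone and planted changes larger than that of any subunit here. The simulation therefore says nothing about smaller ratios or about the spread between cultures.

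The members and lists were chosen with earlier results of these data known, and 3 members were assigned their kind after the files were seen. Members named are those past 2-fold in any comparison, the 2 highest and 2 lowest of each complex with the same sign in both JQ1 comparisons (ranked by the smaller ratio), the highest and lowest mean FPKM of each complex, the SDH genes, paralogue sets, the 5 largest differences between the JQ1 ratios, the 3 members in each direction with the largest PHA ratios, ranked by the smaller of the pair with the same sign and names that are no subunit. Others named (NDUFB10, NDUFS1, NDUFA6, NDUFA11, NDUFV3, UQCRC2, UQCRFS1, ATP5F1, CYCS and MT genes) were chosen after their values were seen. Alternatives were the pseudocount, the filter, the scaling (edgeR 4.0.16 TMM, DESeq2 1.42.0 size factors, centring, totals without the mitochondrial genome) and subunits only. Python 3.11.15, numpy 2.4.6, pandas 2.3.3, scipy 1.17.1, matplotlib 3.10.9 and R 4.3.3 were used. Values of a few single genes are not reported here.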

Additional observations from a re-analysis of the deposited data

Results flagged for a closer look

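For some members, the intervals of a ratio lay on opposite sides of 0 in the paired comparisons, and these differences were not tested, since each condition had 1 library. For the JQ1 ratio with PHA minus that without, the difference of log2 count ratios was -0.40 for ATP5B (0.15 without PHA and -0.25 with PHA), 0.94 for ATP5J2 (-0.52 and 0.42), 8.93 for ATP5J2-PTCD1 (-1.31 and 7.62) and -0.33 for COX7B (0.16 and -0.17). For the PHA ratio with JQ1 minus that without, it was -0.40 for ATP5B (0.22 and -0.18), 0.94 for ATP5J2 (-0.67 and 0.27), 8.93 for ATP5J2-PTCD1 (-8.17 and 0.76), 0.57 for NDUFA11 (-0.35 and 0.23), -0.64 for NDUFA4 (0.42 and -0.21) and 0.43 for NDUFV3 (-0.20 and 0.23). The value of ATP5J2-PTCD1 rests on 1 count in the DMSO + PHA library.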

How the results depend on the processing

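Of 96 alternative values, 78 were classed as unmoved, and none of the medians changed sign. A count was unmoved within 1.5 times its main value, and a median within the median half-width of the members' intervals (0.14 to 0.16). That width is about as large as the medians or larger, so the class could hardly show a moved median. For JQ1, the medians were -0.16 to -0.12 without PHA and -0.15 to -0.08 with PHA. For PHA, they were -0.10 to -0.07 in DMSO and -0.04 to -0.03 in JQ1. The 18 others were counts of members past a fold. These are totals of both directions. For JQ1 against DMSO at 2-fold, the count of 4 became 1 with a pseudocount of 1, 2 with a mean FPKM of at least 5 and 8 with no filter. Of these 8, 3 were higher, where the main setting had none. At 1.5-fold, none higher became 1 with TMM factors, 1 with DESeq2 size factors and 4 with no filter. In the presence of PHA, 1 higher at 1.5-fold became 2 with each of these. For JQ1 + PHA against DMSO + PHA, the count of 10 at 1.5-fold became 6 with a mean FPKM of at least 5, and the count of 4 at 2-fold became 1 with a pseudocount of 1, 1 with a mean FPKM of at least 5, 7 with no filter and 2 with subunits only. For DMSO + PHA against DMSO, the count of 7 at 1.5-fold became 4 with a pseudocount of 1 and 3 with a mean FPKM of at least 5, and the count of 2 at 2-fold became 1, 0 and, with subunits only, 0. For JQ1 + PHA against JQ1, the count of 1 at 1.5-fold became 0 with a pseudocount of 1, 0 with a mean FPKM of at least 5, 0 with subunits only and 5 with no filter, and the count of 0 at 2-fold became 2 with no filter. The lower counts follow from fewer members tested or a shrinking pseudocount on low values. No paired analysis was possible because each condition had 1 library and the result comes from no test. With 1 library per condition, the spread between cultures is not known, and depth limits only the low members.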
